A study of Mus musculus with 32 samples.

Results

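The data described here are the genes whose response to the histone deacetylase inhibitor CI-994 differed between hippocampus and striatum after contextual fear conditioning. The measure is the log2 fold change of drug over vehicle in hippocampus minus the same log2 fold change in striatum, computed for every gene tested, and it is called the region difference. A positive region difference means that expression after the drug was relatively higher in hippocampus, and a negative one that it was relatively higher in striatum. Of 19198 genes tested, 51 had a region difference with an adjusted p under 0.05 (edgeR quasi-likelihood test, Benjamini-Hochberg adjustment over all genes tested) and are referred to as called. The estimate was repeated without hippocampus HDACi-CFC replicates 2 and 4, and 18 of the 51 genes were called with the same sign in both fits.

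The mice were male C57BL/6 animals aged 12 weeks. CI-994 at 30 mg/kg (group label HDACi), or a vehicle of dimethyl sulfoxide, Kolliphor and saline without the drug (Veh), was injected intraperitoneally 1 hour before behaviour. Conditioned mice (CFC) received 2 foot shocks of 0.2 mA in a chamber, the context mice spent the same time there without shocks, and tissue was collected 1 hour later. The region difference uses 16 libraries of polyadenylated RNA, with 4 in each of the groups hippocampus Veh-CFC, hippocampus HDACi-CFC, striatum Veh-CFC and striatum HDACi-CFC. Each library came from 1 hemisphere of 1 region of 1 mouse, and the labels do not say whether a hippocampus and a striatum library with the same number came from the same animal. The other 16 libraries, from context mice, gave the same measure in other animals. Whole cages went through 1 behaviour, so cage and behaviour cannot be told apart.

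Histone deacetylases remove acetyl groups from lysines of histones and other proteins, and those of class I act in the nucleus within corepressor complexes. CI-994 is a benzamide that inhibits this class, and such inhibitors raise histone acetylation and both raise and lower many transcripts. Hippocampus, with its glutamatergic granule and pyramidal neurons, is needed for contextual fear memory, whereas striatum is made up mostly of GABAergic medium spiny neurons that receive dopamine.

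The 16 libraries of the conditioned mice held 27418127 to 36670767 counts each. Summed levels of marker lists are given as CPM (counts scaled to a library total of 1000000) and placed the libraries in their labelled regions: 20 medium spiny neuron markers summed to 9810 to 15700 CPM in striatum and 556 to 640 CPM in hippocampus. Some libraries stood apart. Hippocampus HDACi-CFC replicates 2 and 4 held 9870 and 9710 CPM of 14 choroid plexus markers, against 178 to 325 CPM in the other 6 hippocampus libraries of conditioned mice. Striatum Veh-CFC replicate 3 and striatum HDACi-CFC replicates 2 and 4 held 973 to 996 CPM of 20 hippocampal excitatory neuron markers, against 445 to 513 CPM in the other 5. Neocortical neuron markers were high in the same libraries as a mean of log2 CPM, at 4.14, 4.53 and 4.31 against 3.04 to 3.68 in the other 5. Their summed levels were not clearly apart, at 438 to 473 CPM against 368 to 438 CPM. In striatum Veh-CFC replicate 3 and striatum HDACi-CFC replicate 2 the medium spiny neuron markers were lowest, at 10100 and 9810 CPM. The 12 markers named thalamic summed to 356 to 432 CPM in striatum Veh-CFC and 457 to 645 CPM in striatum HDACi-CFC. In such bulk tissue, fewer cells of a type and less RNA per cell cannot be told apart.

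**Figure D1:**
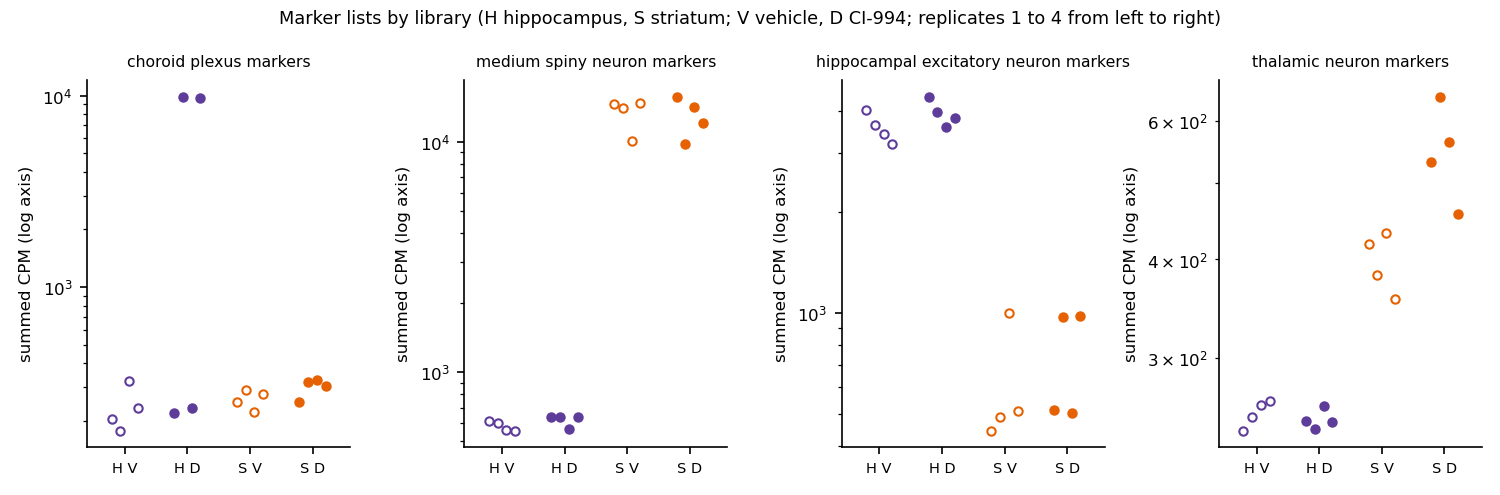
Summed CPM of 4 marker lists in each library of the conditioned mice, on log axes, 1 point a library with replicates 1 to 4 from left to right within each of the 4 groups. Hippocampus HDACi-CFC replicates 2 and 4 stand apart for choroid plexus markers, at 9870 and 9710 CPM, and 3 striatum libraries hold 973 to 996 CPM of the hippocampal markers.

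The drug changed many genes in both regions. In the same fit the drug effect was called for 4006 genes in hippocampus (20.9% of genes tested) and for 4938 in striatum (25.7%). Both regions called 2705 genes, of which 2693 changed in the same direction (43.2% of the 6239 genes called in either region) and 12 in opposite directions. The split of these calls depended on the scaling: 1556 rose (8.11% of genes tested) and 2450 fell (12.8%) in hippocampus and 2290 rose (11.9%) and 2648 fell (13.8%) in striatum, but with library size alone as the scale 1081 rose and 3413 fell, and 1267 rose and 3790 fell. That scale moved the median striatal effect of all genes from 0.05 to −0.05 and the median region difference from −0.02 to 0.00. The genes that changed the same way in both regions were 67.2% of the hippocampus calls and 54.5% of the striatum calls. Across genes with a mean over 1 log2 CPM the 2 sets of drug effects correlated with Pearson's r = 0.742 and Spearman's rho = 0.784. These values are a description, since genes are not independent replicates. A further 3534 genes were called in 1 region alone, but for only 31 of these was the region difference itself called.

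The 51 called genes were 0.266% of the genes tested, with 27 positive (0.141%) and 24 negative (0.125%) region differences. Without an adjustment, 1506 genes had p under 0.05. The 51 genes sat off the line of equal effects in 5 ways on each side. Of the 27 positive genes, 11 fell in striatum with no call in hippocampus, 6 fell in both regions and further in striatum, 6 rose in hippocampus with no call in striatum, 3 rose in hippocampus and fell in striatum, and 1 rose in both. Of the 24 negative genes, 8 fell in hippocampus with no call in striatum, 6 rose in striatum with no call in hippocampus, 5 fell in hippocampus and rose in striatum, 4 fell in both regions and further in hippocampus, and 1 rose in both. Region differences over 2-fold were found for 9 of the 51. Vehicle and drug libraries did not overlap in hippocampus for 33 of the 51 (21.0% of genes tested) and in striatum for 34 (22.9%), counts that the choice of the genes itself affects.

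**Figure D2:**
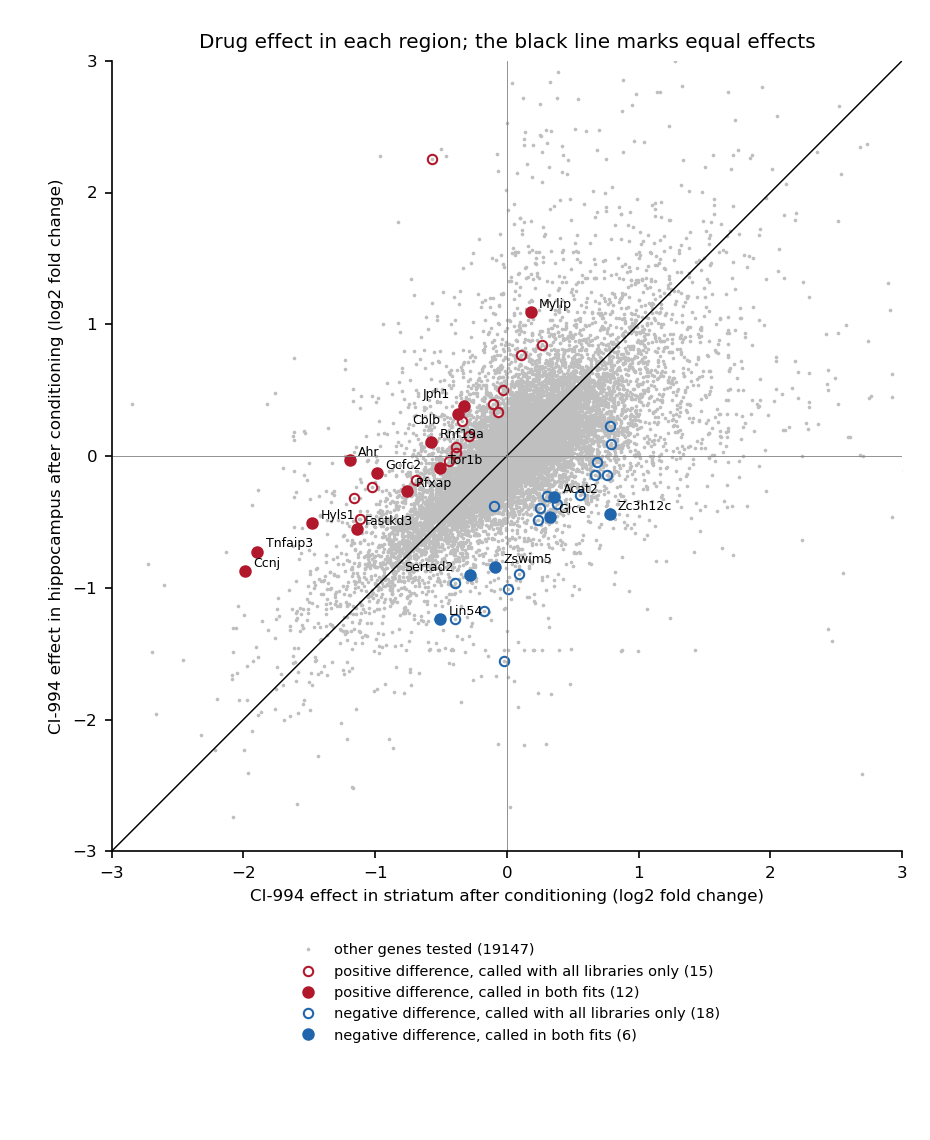
Drug effect in hippocampus (vertical axis) against drug effect in striatum (horizontal axis) after conditioning, both as log2 fold changes, 1 point a gene, with 84 genes outside the axes, 1 of them called. Called genes lie above the line of equal effects where the region difference was positive (27) and below it where it was negative (24), and filled points mark the 18 called in both fits.

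Just inside the threshold lay Eomes (adjusted p = 0.0479) and Tmem38b (0.0444), and just outside it Hacd2 (region difference −0.41, adjusted p = 0.0534) and Cldn1 (4.00, adjusted p = 0.0537). The count depended on the libraries and the model. It was 20 (0.104% of genes tested) without hippocampus HDACi-CFC replicates 2 and 4, 6 when only the 16 libraries of conditioned mice entered the fit (keeping 5 of the 18 genes called in both fits), and 153 with DESeq2's Wald test (97 positive and 56 negative). Leaving out 1 library moved it by over 1.5 times in 5 cases, to 32 without hippocampus HDACi-CFC replicate 2, 33 without hippocampus Veh-CFC replicate 4, 93 without striatum HDACi-CFC replicate 2, and 95 and 108 without hippocampus HDACi-CFC replicates 1 and 3. The balance of directions moved too: 33 positive and 9 negative without striatum HDACi-CFC replicate 1, 41 and 8 without replicate 3 of that group, 37 and 56 without its replicate 2, and 73 and 22 or 78 and 30 without hippocampus HDACi-CFC replicate 1 or 3. Without striatum HDACi-CFC replicate 1 or 3 the median region difference of all genes was 0.06 or 0.05 in place of −0.02. The sign of all 51 was kept in each of these fits, which share libraries with the fit that chose the genes. With 13880 genes (72.3%) the 95% confidence interval of the region difference lay within 2-fold in either direction, and with 9195 (47.9%) within 1.5-fold.

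The 18 genes called in both fits were 0.0938% of the genes tested, 12 positive and 6 negative, and are described next by how they responded in each region. Levels are in CPM. Fold changes and tests come from the edgeR fit, which also rescales the libraries (TMM factors), so a fold change can differ slightly from the ratio of the CPM values. Where groups are called separate or overlapping below, this refers to CPM. On the rescaled values, on which the counts of 33 and 34 rest, Zc3h12c and Tor1b overlapped in hippocampus and Rnf19a did not. RefSeq's table of start sites (build GRCm38.p6) held 12 of these 18 genes. The sequences below are shown for the genes of largest region difference in that table, Tnfaip3 on the positive side and Zc3h12c and Glce on the negative side. Where the table held several starts, that nearest to the gene's annotated start was used. Each is the longest run, outside all exons of GENCODE M21, of the 250 bases before the RefSeq start, read 5′ to 3′ on the minus strand.
Tnfaip3: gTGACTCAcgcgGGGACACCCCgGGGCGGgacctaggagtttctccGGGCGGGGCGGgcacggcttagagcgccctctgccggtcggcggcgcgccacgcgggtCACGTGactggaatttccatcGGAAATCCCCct
Zc3h12c: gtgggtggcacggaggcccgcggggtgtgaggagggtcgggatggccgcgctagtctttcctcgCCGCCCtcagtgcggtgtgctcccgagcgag
Glce: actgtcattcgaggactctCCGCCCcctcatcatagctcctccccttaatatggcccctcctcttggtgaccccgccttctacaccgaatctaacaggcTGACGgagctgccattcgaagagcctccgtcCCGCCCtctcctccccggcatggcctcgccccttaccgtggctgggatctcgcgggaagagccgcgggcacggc
They lie at chr10:19015411-19015547, chr9:52168407-52168501 and chr9:62122656-62122859. The Tnfaip3 and Zc3h12c stretches lie inside the genes as annotated in GENCODE, whose starts are 247 and 166 bases from the RefSeq starts used. Only the Glce stretch lies before the annotated start of its gene. Capitals mark matches, on either strand and overlapping matches included, to 5 motifs: the cAMP response element core TGACG, the GC box GGGCGG, the E-box CACGTG, the AP-1 site TGANTCA and the NF-kappaB consensus site, searched by its usual degenerate form. The Tnfaip3 stretch held 3 GC boxes, 2 NF-kappaB sites, 1 E-box and 1 AP-1 site. Zc3h12c held 1 GC box, and Glce held 2 GC boxes and 1 cAMP response element core. Over the full 250 bases, the 12 matched genes held a GC box in 12, a cAMP response element core in 4, an NF-kappaB site in 3, an E-box in 2 and an AP-1 site in 1. Among 11743 tested protein-coding genes with 1 start each, these motifs were in 57.3%, 25.5%, 8.82%, 8.05% and 4.17% of windows, and over all 32851 windows of the table in 32.7%, 17.8%, 7.25%, 6.02% and 6.75%. The median number of CpG dinucleotides was 23.5 in the 12 windows and 15.0 in those of the tested protein-coding genes. A match is a description of the letters and no binding was measured here.

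Of the 12 positive genes, Tnfaip3, Ccnj, Hyls1, Fastkd3 and Rfxap fell in both regions and fell further in striatum. Tnfaip3 (ENSMUSG00000019850, mm10 chr10:19000910-19015657, minus strand) encodes A20, a ubiquitin-editing enzyme that restrains NF-kappaB signalling. In hippocampus its level was 7.63, 6.57, 6.93 and 5.89 CPM in the vehicle libraries and 4.02, 3.81, 4.48 and 3.14 CPM in the drug libraries. In striatum it was 5.98, 8.21, 7.0 and 7.71 CPM with vehicle and 2.17, 1.62, 1.69 and 1.73 CPM with the drug. Vehicle and drug libraries did not overlap in either region, and the 4 lowest of the 16 values were those of the drug in striatum. The drug lowered Tnfaip3 1.65-fold in hippocampus (adjusted p = 0.000225) and 3.71-fold in striatum (adjusted p = 1.57e-10). Its region difference of 1.17 (SE 0.201, 95% interval 0.76 to 1.58, adjusted p = 0.00618) was the most positive of the 18, and it was 1.31 without the 2 hippocampus libraries (adjusted p = 0.00971). Of 22 NF-kappaB pathway genes tested, Tnfaip3 was the only one called (0.266% of all genes tested were), and the median region difference of that list was 0.05 beside −0.02 over all genes tested.

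Ccnj (ENSMUSG00000025010, mm10 chr19:40831279-40848572, plus strand) encodes cyclin J. It stood at 10.8, 9.51, 10.2 and 9.41 CPM in vehicle hippocampus and at 5.53, 4.96, 5.02 and 5.15 CPM with the drug. The striatal values were 10.4, 10.3, 10.5 and 9.58 CPM with vehicle and 2.31, 2.85, 2.12 and 2.31 CPM with the drug. Vehicle levels were alike in the 2 regions, and the drug levels were separate from them and from each other. Ccnj fell 1.83-fold in hippocampus and 3.97-fold in striatum, the largest striatal fall of the 18, giving a region difference of 1.12 (SE 0.148, adjusted p = 0.000532) with all libraries and 1.16 (adjusted p = 0.00409) without the 2. Hyls1 (ENSMUSG00000050555, mm10 chr9:35560820-35570398, minus strand), a centriolar protein needed to build cilia, was at 11.4, 9.44, 12.5 and 10.1 CPM in vehicle hippocampus and 6.51, 7.16, 9.52 and 5.67 CPM with the drug. In striatum it went from 5.66, 5.25, 7.24 and 6.0 CPM to 1.93, 2.04, 1.87 and 2.24 CPM. One drug library overlapped the vehicle range in hippocampus (9.52 CPM), and none did in striatum. The falls were 1.43-fold and 2.78-fold, and the region difference was 0.96 (SE 0.206, adjusted p = 0.0306). The call for Hyls1 was lost without hippocampus Veh-CFC replicate 2 or 4, hippocampus HDACi-CFC replicate 2 or striatum Veh-CFC replicate 3 (adjusted p up to 0.0781). Hyls1 overlaps Pus3 on the other strand, which had the higher mean count in the conditioned libraries (279 against 206). The strand setting of the counting is not given in the sources used here, so the values of Hyls1 are uncertain.

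Fastkd3 (ENSMUSG00000021532, mm10 chr13:68582234-68592338, plus strand), a mitochondrial protein of the FASTK family that acts on mitochondrial transcripts, had tight values. With vehicle it was 13.3, 13.7, 14.2 and 14.5 CPM in hippocampus and 11.8, 11.7, 12.0 and 12.4 CPM in striatum. With the drug it was 8.6, 8.58, 9.52 and 9.17 CPM in hippocampus and 5.12, 5.14, 5.25 and 4.77 CPM in striatum. No groups overlapped, and Fastkd3 fell 1.47-fold in hippocampus and 2.2-fold in striatum (region difference 0.58, SE 0.111, adjusted p = 0.0124). Rfxap (ENSMUSG00000036615, mm10 chr3:54803115-54807791, minus strand), a subunit of the RFX complex that drives transcription of MHC class II genes, fell from 22.6, 22.1, 21.2 and 21.4 CPM to 17.5, 17.3, 17.3 and 16.7 CPM in hippocampus. In striatum it fell from 12.9, 13.6, 14.2 and 14.1 CPM to 7.05, 8.99, 6.84 and 7.47 CPM. The falls of 1.2-fold and 1.69-fold gave a region difference of 0.49 (SE 0.0897, adjusted p = 0.00904), again with no overlap of vehicle and drug in either region.

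Ahr, Gcfc2, Rnf19a and Tor1b fell in striatum and were not called in hippocampus. Ahr (ENSMUSG00000019256, mm10 chr12:35497974-35535038, minus strand) encodes the aryl hydrocarbon receptor, a transcription factor activated by ligands. Its hippocampal values were 10.1, 9.89, 11.4 and 9.14 CPM with vehicle and 8.95, 8.10, 12.4 and 8.16 CPM with the drug. The striatal values were 7.02, 8.39, 9.75 and 6.99 CPM with vehicle and 3.08, 3.84, 2.99 and 3.2 CPM with the drug. The groups overlapped in hippocampus, with the highest value of all in a drug library, and were separate in striatum. The hippocampal effect was −0.03 on the log2 scale (adjusted p = 0.932), while striatum fell 2.29-fold (adjusted p = 1.21e-06). The region difference was 1.17 (SE 0.216, 95% interval 0.72 to 1.61, adjusted p = 0.01) and 1.36 without the 2 libraries (adjusted p = 0.00975).

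Gcfc2 (ENSMUSG00000035125, mm10 chr6:81923669-81959915, plus strand), a nuclear protein linked to splicing, was at 12.8, 13.2, 12.5 and 15.3 CPM in vehicle hippocampus and 13.1, 11.7, 11.2 and 10.6 CPM with the drug. In striatum vehicle values of 7.72, 8.86, 9.26 and 10.7 CPM stood against drug values of 4.07, 4.76, 3.99 and 4.42 CPM. Only the striatal groups were separate, with a 1.98-fold fall, and the region difference was 0.86 (SE 0.156, adjusted p = 0.00904). Gcfc2 overlaps Mrpl19 on the other strand, which had the higher mean count in the conditioned libraries (797 against 303), so its values are uncertain too. Rnf19a (ENSMUSG00000022280, mm10 chr15:36239933-36283147, minus strand), a RING-type ubiquitin ligase, was nearly level in hippocampus, at 79.3, 75, 85.0 and 82.6 CPM with vehicle and 82.4, 80.6, 82.3 and 82.1 CPM with the drug. In striatum it was 35.8, 39.7, 44.6 and 38.9 CPM with vehicle and 22.6, 25.7, 25.6 and 25.8 CPM with the drug. All 4 striatal drug values lay under all 4 vehicle values. Rnf19a fell 1.49-fold there (region difference 0.68, SE 0.113, adjusted p = 0.00618). Tor1b (ENSMUSG00000026848, mm10 chr2:30952959-30959015, plus strand), a torsin ATPase of the endoplasmic reticulum and nuclear envelope, was at 53.2, 51.2, 50.8 and 52.8 CPM in vehicle hippocampus and 45.4, 44.7, 48.4 and 46.0 CPM with the drug. Its striatal values were 40.5, 36.3, 40.4 and 40.9 CPM with vehicle and 24.6, 25.8, 26.4 and 26.5 CPM with the drug. The CPM values did not overlap in either region, but after scaling the hippocampal effect was −0.09 (adjusted p = 0.229), and the striatal fall was 1.42-fold. The region difference of Tor1b, 0.42 (SE 0.0736, adjusted p = 0.00636), was the smallest of the 18.

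**Figure D3:**
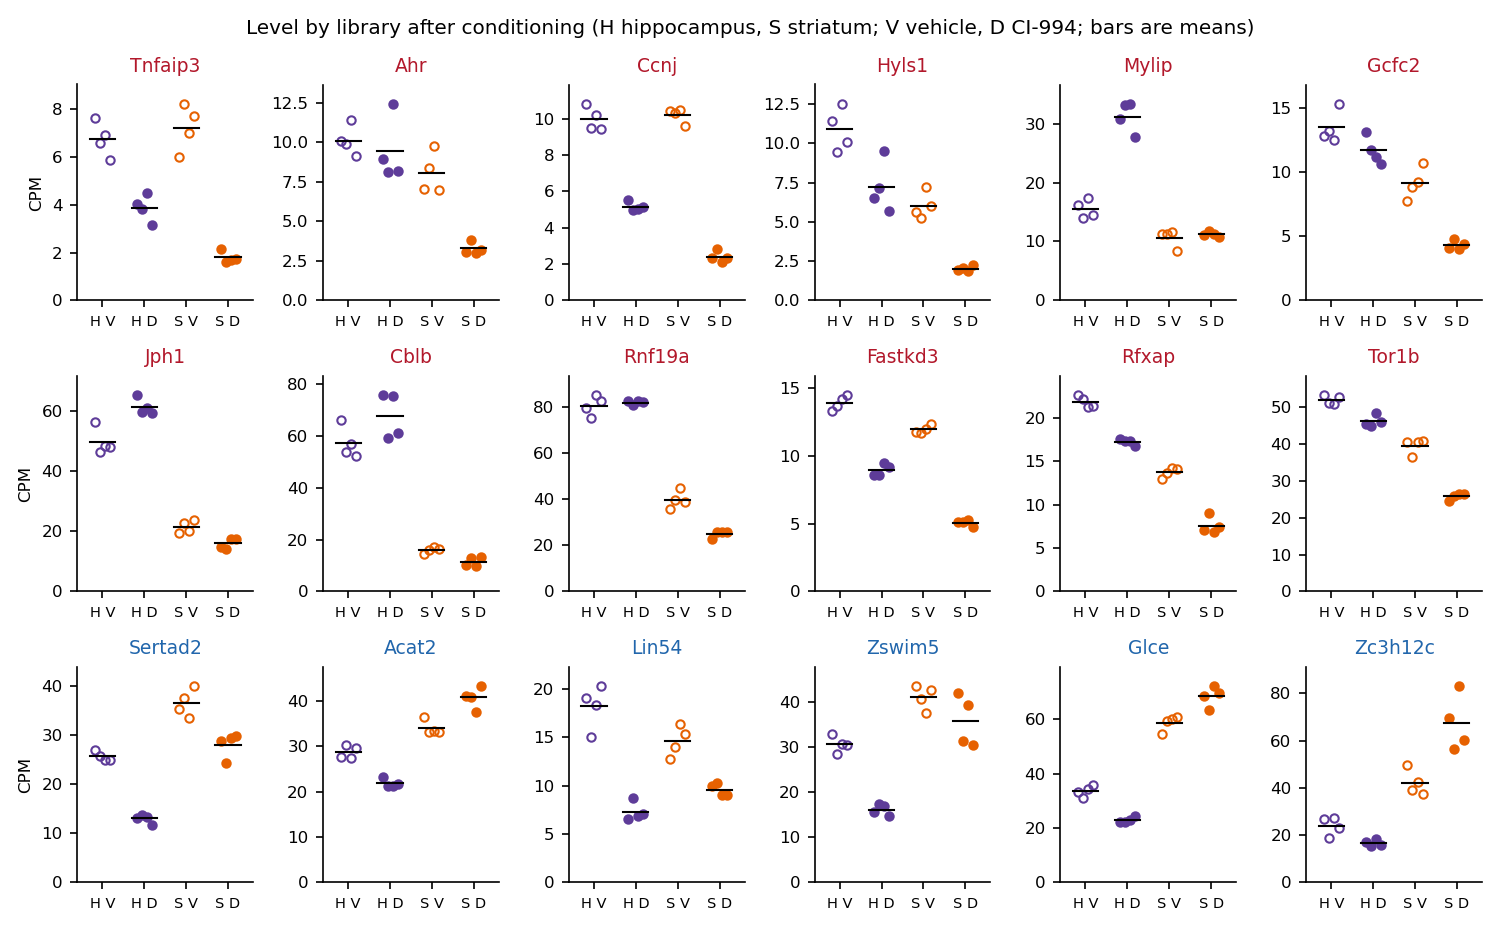
CPM of the 18 genes called in both fits in each library of the conditioned mice, 1 point a library and a bar for the group mean, with symbols in red for positive and in blue for negative region differences. In Ccnj, Tnfaip3 and Hyls1 the drug libraries of striatum are the lowest, and in Zc3h12c, Glce and Acat2 the drug moves the regions in opposite directions.

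Cblb, Jph1 and Mylip rose in hippocampus. Jph1 (ENSMUSG00000042686, mm10 chr1:16964560-17097889, minus strand) encodes junctophilin 1, which holds the endoplasmic reticulum close to the plasma membrane. Hippocampal values were 56.2, 46.5, 48.5 and 47.9 CPM with vehicle and 65.3, 59.7, 61.1 and 59.2 CPM with the drug, and striatal values were 19.5, 22.6, 20.2 and 23.9 CPM and then 14.7, 14.2, 17.6 and 17.5 CPM. The groups were separate in each region and moved in opposite directions. Jph1 rose 1.30-fold in hippocampus (adjusted p = 0.00132) and fell 1.25-fold in striatum (adjusted p = 0.00669), a region difference of 0.70 (SE 0.122, adjusted p = 0.00618). Cblb (ENSMUSG00000022637, mm10 chr16:52031225-52208048, plus strand), a ubiquitin ligase that damps receptor signalling, was at 66.1, 53.8, 56.9 and 52.4 CPM in vehicle hippocampus and 75.7, 59.0, 75.2 and 61.2 CPM with the drug. It was at 14.3, 16, 17.3 and 16.3 CPM in vehicle striatum and at 10.1, 13.0, 9.86 and 13.2 CPM with the drug. Its hippocampal groups overlapped, and the drug libraries with the lower hippocampal values were replicates 2 and 4, those rich in choroid plexus markers. Cblb rose 1.25-fold in hippocampus (adjusted p = 0.0159) and fell 1.29-fold in striatum (adjusted p = 0.00787). The region difference was 0.69 (SE 0.141, adjusted p = 0.0219) with all libraries and 0.86 (adjusted p = 0.00975) without these 2, and the call was lost without hippocampus Veh-CFC replicate 2 or 4 or striatum Veh-CFC replicate 3 (adjusted p up to 0.0625). It was also lost with a replicate block that takes libraries of the same treatment and number in both regions as 1 mouse (0.69, adjusted p = 0.0618).

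Mylip (ENSMUSG00000038175, mm10 chr13:45389742-45412022, plus strand) encodes the ubiquitin ligase that sends the LDL receptor to degradation, and it was the only one of the 18 that rose in hippocampus without a call in striatum. Vehicle hippocampus held 16.2, 13.9, 17.3 and 14.5 CPM and drug hippocampus 30.7, 33.1, 33.3 and 27.8 CPM. Vehicle striatum held 11.3, 11.2, 11.6 and 8.43 CPM and drug striatum 11.1, 11.8, 11.2 and 10.7 CPM. The hippocampal drug values lay far above all others, and the striatal groups overlapped. Mylip rose 2.13-fold in hippocampus (adjusted p = 1.23e-08), against 1.13-fold in striatum (adjusted p = 0.247), with a region difference of 0.91 (SE 0.155, 95% interval 0.60 to 1.23, adjusted p = 0.00618).

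Zc3h12c, Glce and Acat2 fell in hippocampus and rose in striatum. Zc3h12c (ENSMUSG00000035164, mm10 chr9:52111344-52168572, minus strand) belongs to the Regnase family of CCCH zinc finger ribonucleases, which degrade messenger RNAs of inflammation. Its hippocampal values were 26.9, 18.8, 27.1 and 23.0 CPM with vehicle and 17.0, 15.5, 18.4 and 15.8 CPM with the drug. In striatum they were 49.5, 39.2, 42.5 and 37.6 CPM and then 69.5, 56.5, 83.1 and 60.3 CPM. The groups were separate in striatum, and in hippocampus they were separate in CPM by 18.8 against 18.4 but overlapped after rescaling. The hippocampal fall was 1.36-fold (adjusted p = 0.0153) and the striatal rise 1.72-fold (adjusted p = 3.54e-05). The region difference of −1.22 (SE 0.185, 95% interval −1.60 to −0.84, adjusted p = 0.00166) was the most negative of the 18, and it was −1.13 without the 2 hippocampus libraries (adjusted p = 0.0227).

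Glce (ENSMUSG00000032252, mm10 chr9:62057248-62122655, minus strand) encodes the epimerase that converts glucuronic to iduronic acid in heparan sulfate. It was at 33.4, 31.2, 34.2 and 35.9 CPM in vehicle hippocampus and at 22.4, 22.4, 22.9 and 24.6 CPM with the drug, and at 54.5, 59.5, 60.2 and 60.9 CPM and then 68.7, 63.4, 72.2 and 69.6 CPM in striatum. No groups overlapped. Glce fell 1.38-fold in hippocampus (adjusted p = 5.7e-05) and rose 1.25-fold in striatum (adjusted p = 0.00236), with a region difference of −0.79 (SE 0.111, adjusted p = 0.000842). Acat2 (ENSMUSG00000023832, mm10 chr17:12942890-12960747, minus strand), the cytosolic thiolase that joins acetyl-CoA units at the start of sterol synthesis, was at 27.6, 30.3, 27.4 and 29.5 CPM in vehicle hippocampus and 23.2, 21.3, 21.2 and 21.6 CPM with the drug. Striatal values were 36.5, 33.2, 33.3 and 33.2 CPM with vehicle and 41.1, 40.9, 37.6 and 43.2 CPM with the drug. The directions were opposite without overlap, 1.24-fold down and 1.28-fold up, and the region difference was −0.67 (SE 0.1, adjusted p = 0.00166). Of 22 cholesterol synthesis genes tested, 0 had a called region difference, and the list's median was 0.01. With 0.266% of all genes tested called, this count is no result about that list, which does not hold Acat2.

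Zswim5, Lin54 and Sertad2 fell in hippocampus more than in striatum. Zswim5 (ENSMUSG00000033948, mm10 chr4:116877376-116989264, plus strand), a SWIM-type zinc finger gene, was at 32.8, 28.3, 30.6 and 30.3 CPM in vehicle hippocampus and 15.6, 17.4, 16.8 and 14.6 CPM with the drug. Its striatal values were 43.4, 40.5, 37.4 and 42.5 CPM and then 41.8, 31.3, 39.3 and 30.3 CPM. Hippocampal groups were separate and striatal ones overlapped, where drug replicates 2 and 4 were lower than 1 and 3. Zswim5 fell 1.79-fold in hippocampus (adjusted p = 6.8e-08) against 1.07-fold in striatum (adjusted p = 0.5), with a region difference of −0.75 (SE 0.129, adjusted p = 0.00618). The 2 lower striatal libraries were those with 973 and 979 CPM of hippocampal excitatory neuron markers, whose part in the result was not tested.

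Lin54 (ENSMUSG00000035310, mm10 chr5:100441918-100500639, minus strand) encodes the DNA-binding subunit of the MuvB core, which represses or activates cell cycle genes. Hippocampal values fell from 19.1, 15.0, 18.4 and 20.3 CPM to 6.54, 8.71, 6.89 and 7.10 CPM, and striatal values from 12.8, 14, 16.4 and 15.3 CPM to 9.99, 10.3, 9.07 and 9.07 CPM. No groups overlapped. The falls were 2.36-fold, the largest hippocampal fall of the 18, and 1.42-fold, and the region difference was −0.73 (SE 0.154, adjusted p = 0.0282). Lin54 lost its call when any of 8 of the 16 libraries was left out (adjusted p up to 0.0874), so it was close to the threshold. Sertad2 (ENSMUSG00000049800, mm10 chr11:20543253-20653021, plus strand), a SERTA domain coregulator of transcription, was at 27.0, 25.7, 24.8 and 24.9 CPM in vehicle hippocampus and 13.1, 13.8, 13.3 and 11.6 CPM with the drug. The striatal values were 35.2, 37.5, 33.5 and 39.9 CPM with vehicle and 28.7, 24.3, 29.3 and 29.7 CPM with the drug. All groups were separate, with falls of 1.87-fold and 1.21-fold and a region difference of −0.63 (SE 0.108, adjusted p = 0.00618).

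Leaving out hippocampus HDACi-CFC replicates 2 and 4 took the call from 33 genes, and all 33 kept their sign. For 32 of them the difference without these libraries was 0.792 to 1.14 times the difference with them. Fewer libraries entered that fit, and all of them were also in the fit that chose the genes. The exception was Scube3, a secreted protein with EGF-like and CUB domains. It was at 1.27, 0.821, 1.03 and 1.12 CPM in vehicle hippocampus and at 1.22, 8.41, 1.17 and 8.65 CPM with the drug, so the 2 high values were those of replicates 2 and 4. In striatum it was at 44.6, 41.8, 27.4 and 42.9 CPM with vehicle and 28.0, 22.1, 23.2 and 24.6 CPM with the drug. Its region difference was 2.82 (SE 0.542, adjusted p = 0.0136) with all libraries and 0.83 (adjusted p = 0.579) without the 2, a ratio of 0.293. Leaving out either one also ended the call, with adjusted p of 0.0516 without replicate 2 and 0.0538 without replicate 4. Scube3 was thus high in the same 2 libraries as the choroid plexus markers, and in replicates 1 and 3 the drug values of 1.22 and 1.17 CPM lay within the vehicle range.

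Mphosph10 and Mapkapk3 were called only without these libraries. Mphosph10 had a region difference of 0.98 (adjusted p = 0.0372) then and of 0.80 (adjusted p = 0.063) with all libraries. Mapkapk3, a kinase downstream of p38, had −1.28 (adjusted p = 0.0208) then and −0.90 (adjusted p = 0.117) with all. Both were called after context, at 0.96 and −1.16. They are named here after their values were seen.

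**Figure D4:**
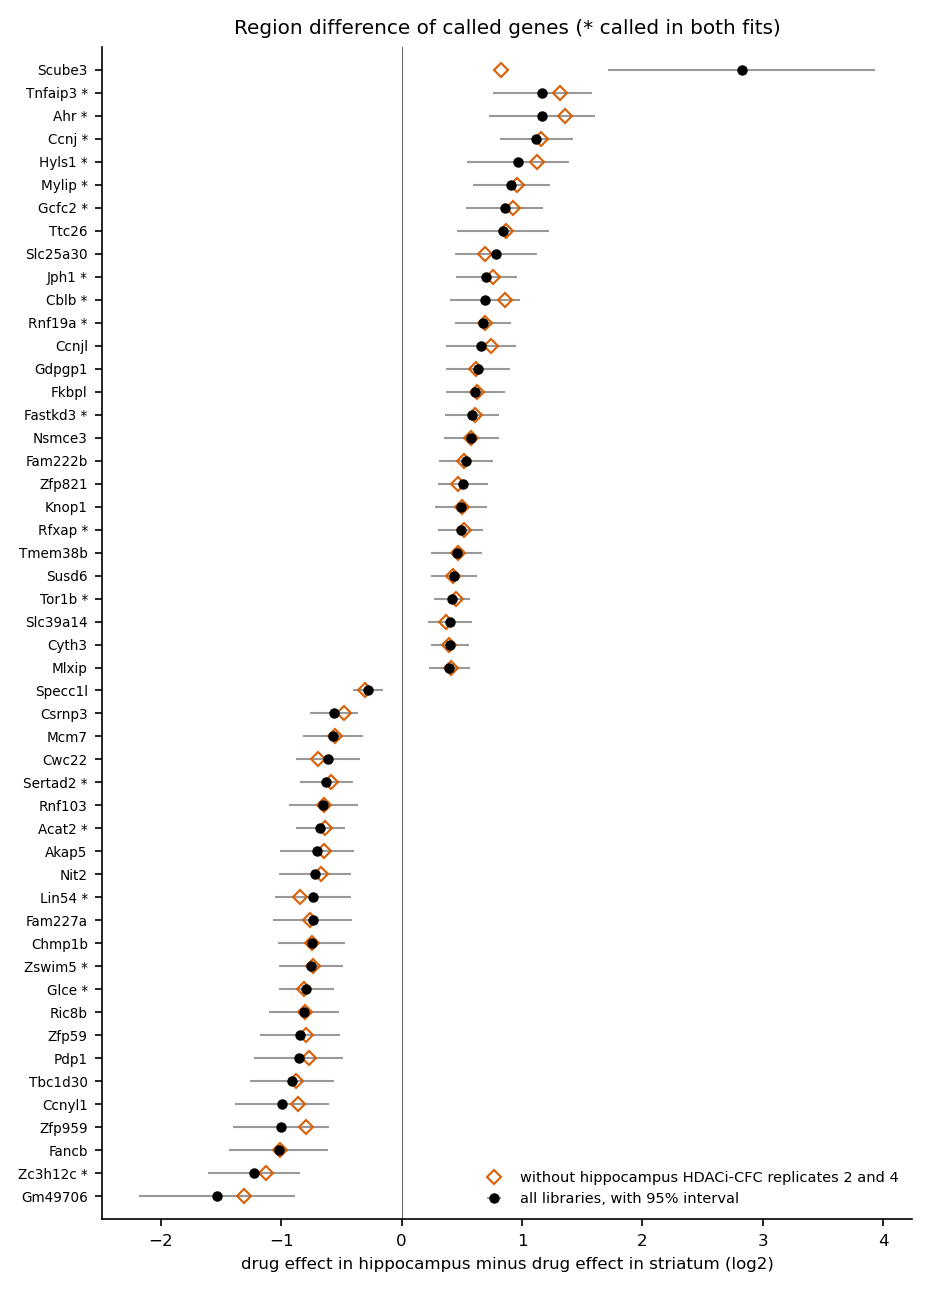
Region difference of 50 of the 51 called genes (log2, horizontal axis; Eomes, at −5.33, lies outside), with all libraries (filled circles, bars for the 95% confidence interval) and without hippocampus HDACi-CFC replicates 2 and 4 (open diamonds). Scube3 is the gene whose estimate moves outside its interval, from 2.82 to 0.83, and the sign is kept in every gene.

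Choroid plexus markers showed what the 2 libraries add. All 14 were called as risen in hippocampus with all libraries (8.11% of genes tested were), with a median hippocampal effect of 4.95. The region difference was called for 0 of 14. With 0.266% of all genes tested called, that 0 is no result about the list. The median region difference of the list was 4.39 with all libraries and −0.71 without the 2, beside −0.02 and −0.04 over all genes tested. Ttr, the transthyretin gene and the main secreted product of the choroid plexus, was at 7.18, 9.10, 38.3 and 15.4 CPM in vehicle hippocampus and 10.9, 5430, 5.05 and 5240 CPM with the drug, and at 0.104 to 10.2 CPM in the striatum libraries. Its region difference was 9.06 (95% interval 4.34 to 13.77, adjusted p = 0.0945) with all libraries and 0.69 (adjusted p = 1) without the 2. DESeq2's Wald test called it (9.08, adjusted p = 0.00406).

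The other 32 genes called only with all libraries are given by pattern, and except for Akap5 and Pdp1 they are named after their values were seen. Akap5, which anchors protein kinase A and other enzymes at postsynaptic sites, was the only called gene among 45 glutamate receptor and postsynaptic scaffold genes (list median −0.05). With 0.266% of all genes tested called, this count is no result about the list. Akap5 was at 94.7, 89.4, 104 and 100 CPM in vehicle hippocampus and 95.6, 93.4, 107 and 94.6 CPM with the drug. In striatum it was at 395, 422, 395 and 419 CPM with vehicle and 738, 496, 720 and 658 CPM with the drug. Hippocampal groups overlapped, and each striatal drug value lay above each vehicle value. Akap5 rose 1.73-fold in striatum (adjusted p = 1.38e-06), with a region difference of −0.70 (SE 0.149, adjusted p = 0.0294) and −0.64 (adjusted p = 0.238) without the 2 libraries. Its call was lost in 10 of 16 fits without 1 library (edgeR, adjusted p up to 0.113).

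Pdp1, a phosphatase that activates the pyruvate dehydrogenase complex, was the only called gene among 12 markers named thalamic (0.266% of all genes tested were called). Striatal values were 272, 213, 287 and 191 CPM with vehicle and 365, 267, 395 and 289 CPM with the drug, and hippocampal values were 84.8 to 94.0 CPM and 63.3 to 78.4 CPM. The striatal groups overlapped, and the hippocampal groups were separate though the drug effect there was not called. Pdp1 had a region difference of −0.85 (SE 0.18, adjusted p = 0.029). Its call was lost in 9 of 16 fits without 1 library (edgeR, adjusted p up to 0.128). The thalamic list as a whole had a median region difference of −0.38, and its summed level was higher in every striatum HDACi-CFC library than in every striatum Veh-CFC library; in context mice it was 400 to 463 CPM with vehicle and 501 to 565 CPM with the drug. The part of that in the value of Pdp1 was not tested. Ric8b, a chaperone of stimulatory G protein alpha subunits, rose 1.59-fold in striatum, from 156 ± 16.9 to 231 ± 42.4 CPM (SD, n = 4), and had a region difference of −0.81 (SE 0.142, adjusted p = 0.00618). Tbc1d30 and Fam227a also rose in striatum without a call in hippocampus (−0.91 and −0.74).

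Eomes, a T-box transcription factor of excitatory neuron precursors, had the most negative value of the 51, −5.33 (SE 1.2, adjusted p = 0.0479). It was at 0.0349, 0, 0.139 and 0.0328 CPM in vehicle striatum and at 0.0701, 5.32, 0.324 and 0.545 CPM with the drug, and at 0.84 to 2.36 CPM in hippocampus. Striatum HDACi-CFC replicate 2 was the highest of the 8 striatal values, and without it the region difference was −3.09 (adjusted p = 0.149). The call was also lost without striatum Veh-CFC replicate 1, 2, 3 or 4 and without most of the hippocampus libraries, in 12 of 16 fits in all. That library also held the fewest medium spiny neuron markers.

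The genes that fell in hippocampus with no call in striatum were 8, Zswim5 among them. Fancb, of the Fanconi anaemia DNA repair complex, fell 2.02-fold in hippocampus, from 2.78 ± 0.425 to 1.30 ± 0.108 CPM (SD, n = 4), and stood at 10.6 ± 0.47 and 9.91 ± 1.75 CPM in striatum (region difference −1.02, SE 0.202, adjusted p = 0.016). Ccnyl1, a cyclin-like gene, fell 1.86-fold from 11.9 ± 1.52 CPM in hippocampus (−0.99, adjusted p = 0.0136). Zfp959 (−1.0), Nit2 (−0.72), Rnf103 (−0.65) and Specc1l (−0.28) followed the same pattern, as did the predicted gene Gm49706 (−1.53), which lies within Sec22a on the same strand. The cell cycle helicase gene Mcm7 fell in both regions, 1.95-fold in hippocampus and 1.31-fold in striatum (−0.57, adjusted p = 0.0292), and so did the zinc finger gene Zfp59 (−0.84). Chmp1b (−0.75), an ESCRT-III subunit, and Cwc22 (−0.61), a spliceosome protein, fell in hippocampus and rose in striatum. Csrnp3 rose in both, 1.17-fold in hippocampus and 1.72-fold in striatum (−0.56, adjusted p = 0.00618). Zfp959 and Zfp59 have close relatives, and Nit2, Mcm7, Chmp1b and Gm49706 overlap genes of higher count (Tomm70a, Cops6, Gnal and Sec22a). The counting step is not given in the sources used here, so the values of all these genes are uncertain.

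On the positive side, 7 further genes fell in striatum with no call in hippocampus. These were Ttc26 (0.84), a transport protein of cilia, the mitochondrial carrier gene Slc25a30 (0.78), Zfp821 (0.51), Tmem38b (0.46), an intracellular cation channel, Susd6 (0.44), the zinc and iron transporter gene Slc39a14 (0.40) and Mlxip (0.40), a glucose-responsive transcription factor. Their striatal falls ran from 1.22-fold (Susd6) to 2.23-fold (Ttc26). Besides Mylip and Scube3, the genes that rose in hippocampus with no call in striatum were Ccnjl (0.66), Fam222b (0.54), Knop1 (0.49) and Cyth3 (0.40). Ccnjl, a relative of the cyclin J gene Ccnj, rose 1.70-fold in hippocampus, from 7.39 ± 0.547 to 11.9 ± 0.874 CPM (SD, n = 4), and stood at 2.69 ± 0.229 and 2.70 ± 0.134 CPM in striatum. Nsmce3, a subunit of the SMC5/6 complex, rose 1.79-fold in hippocampus and 1.2-fold in striatum (0.58, adjusted p = 0.0139). Gdpgp1 (0.63) fell in both regions, and Fkbpl (0.61) rose in hippocampus and fell in striatum. Knop1 and Nsmce3 overlap genes of higher count (Vps35l and Fam189a1), so their values are uncertain too.

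The context mice gave the same measure in libraries that share none with the conditioned mice. Both measures used 1 shared estimate of the spread, and the TMM scaling was computed over all libraries together, so their values and calls are not independent. Without the context libraries 6 genes were called after conditioning. After context, 119 genes (0.62% of genes tested) were called, 55 positive (0.286%) and 64 negative (0.333%). This balance depended on the scaling, with 68 and 41 under DESeq2's size factors and 86 and 49 under library size alone. It was 137 and 35 without striatum HDACi-CFC replicate 1 and 135 and 35 without replicate 3, libraries of conditioned mice that enter the context values only through the shared fit, and the median region difference of all genes after context was then 0.07 in place of −0.03. All 51 genes called after conditioning had the same sign after context, where 63.5% of all genes tested did. Of the 51, 40 were called after context too, which is 78.4% of the conditioning calls and 33.6% of the context calls. All 18 genes called in both conditioning fits were called after context with the same sign, with values from 0.34 (Tor1b) to 1.34 (Ahr) on the positive side and from −0.62 (Sertad2) to −1.20 (Zc3h12c) on the negative side. The 11 without a context call were Slc25a30, Zfp821, Mlxip, Fkbpl, Gdpgp1, Scube3, Mcm7, Csrnp3, Fancb, Pdp1 and Eomes. In the other direction, 117 of the 119 genes called after context had the same sign after conditioning.

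A test of the difference between the 2 behaviours called 0 genes (0.0%; edgeR, 369 at an unadjusted p under 0.05; DESeq2's Wald test also 0, with 336). Of the 51, 2 had an unadjusted p under 0.05. These were Ccnj, whose region difference was 1.12 after conditioning and 0.61 after context (difference 0.51, unadjusted p = 0.0202 in edgeR), and Scube3, at 2.82 and 0.35 (unadjusted p = 0.00437 in edgeR). The largest gap among the 18 was that of Ccnj. A p over the threshold does not show that a region difference was equal after both behaviours.

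**Figure D5:**
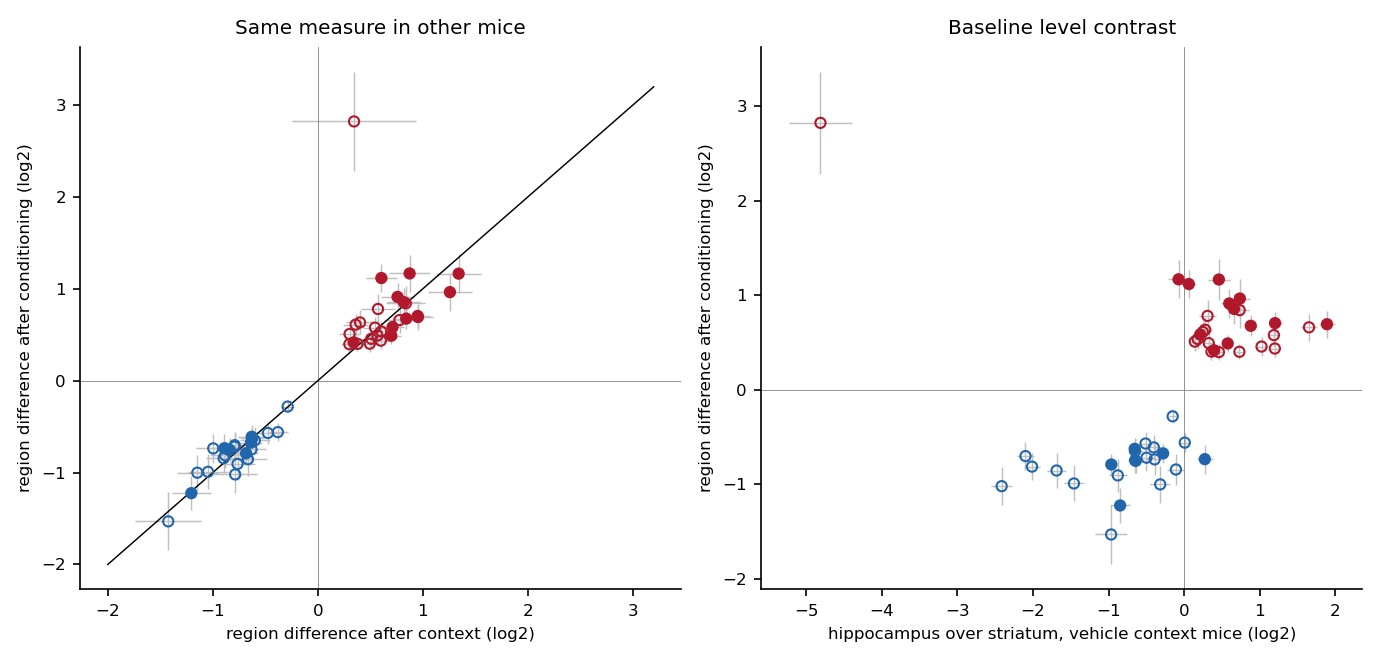
Region difference after conditioning (vertical axes, log2) of 50 called genes, Eomes left out, against the region difference after context (left, with a line of equality) and against the vehicle level of hippocampus over striatum in context mice (right, log2). Bars are standard errors, and filled points mark the 18 genes called in both fits; all 50 share their sign on the left, and Scube3 is the point that lies far to the left on the right-hand panel.

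Most called genes with a positive region difference had the higher vehicle level in hippocampus, and most with a negative one had it in striatum. Hippocampus over striatum in vehicle context mice, which are not in the region difference after conditioning, was called for 8471 genes (44.1% of genes tested). Of the 27 positive genes, 25 had higher vehicle levels in hippocampus, 22 of them called (24.2% of genes tested were called higher in hippocampus). Of the 24 negative genes, 21 had higher vehicle levels in striatum, 19 of them called (19.9% of genes tested were called higher in striatum). Together 46 of the 51 had a region difference of the same sign as this baseline contrast, where 48.3% of all genes tested did. Among the 18 the count was 16, from Cblb (3.71-fold higher in hippocampus) to Glce (1.95-fold higher in striatum), and the exceptions were Tnfaip3 (−0.07, adjusted p = 0.696) and Lin54 (0.27, adjusted p = 0.0379). Protein-coding genes made up 50 of the 51. Over all 51 the median transcript length was 4240 bases (3000 over all genes tested) and the median GC content 46.3% (49.2%). The median of the genes' mean levels was 4.44 log2 CPM (3.38), and the choice of the genes itself affects this level.

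Genes usually measured after learning had no called region difference, and their intervals were wide. The immediate early gene Fos, a component of AP-1, was at 7.61 to 17.9 CPM in vehicle hippocampus, 11.5 to 12.4 CPM with the drug, 3.12 to 26.5 CPM in vehicle striatum and 10.7 to 17.6 CPM with the drug. All these groups overlapped, and its region difference was −0.03 (95% interval −1.20 to 1.14, adjusted p = 1). Arc, which acts at synapses in receptor traffic, had 0.18 (interval −1.09 to 1.44), the neuronal transcription factor Npas4 −0.16 (−1.25 to 0.93), Egr1 −0.26 (−0.89 to 0.38) and the nuclear receptor Nr4a1 −0.07 (−0.98 to 0.85). For the scaffold gene Homer1 the value was −0.10 (−0.61 to 0.42).

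Bdnf, a neurotrophin made by hippocampal and cortical neurons, was at 45.4 to 68.0 CPM in vehicle hippocampus and 63.9 to 77.8 CPM with the drug. In striatum it was at 0.21, 0.474, 17.4 and 0.656 CPM with vehicle and 0.421, 8.35, 0.072 and 7.05 CPM with the drug. The 3 high striatal values are those of the libraries with 973 to 996 CPM of hippocampal markers, and the region difference was 0.65 with an interval of −1.59 to 2.89. Ptgs2, the inducible prostaglandin synthase, showed the same striatal libraries high (12.3, 14 and 14 CPM, against 2.2 to 5.43 CPM in the other 5). It rose 2.53-fold in hippocampus (adjusted p = 0.0111), while the 2.03-fold in striatum was not called (adjusted p = 0.0807), and its region difference was 0.32 (−0.86 to 1.49). The part of these libraries in both values was not tested.

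The genes of the drug's targets had narrow intervals. Hdac1 had a region difference of 0.04 (−0.17 to 0.25), Hdac2 −0.15 (−0.43 to 0.13) and Hdac3 0.08 (−0.13 to 0.30). Hdac1 was at 35.4 ± 0.677 and 37.7 ± 1.78 CPM in hippocampus and 15.2 ± 1.37 and 15.6 ± 2.21 CPM in striatum, for vehicle and drug (SD, n = 4). Of 11 histone deacetylase genes, 35 subunits of class I corepressors and 24 acetyltransferases and acetyl-lysine readers, 0 had a called region difference, with medians of 0.01, −0.02 and −0.05. With 0.266% of all genes tested called, a count of 0 in lists of this size is no result about them. The drug effect itself was called in these last 2 lists as follows, beside 20.9% of all genes in hippocampus and 25.7% in striatum: of the corepressor subunits 4 rose and 9 fell in hippocampus and 6 rose and 12 fell in striatum, and of the acetyltransferases and readers 0 and 12, and 2 and 11.

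Over 37 lists of pathways, RNA classes and cell type markers, 3 members had a called region difference, and these were Tnfaip3, Akap5 and Pdp1. They were 0.406% of the 739 listed genes tested, beside 0.266% of all genes tested, so these counts are no result about the lists. The list medians lay between −0.20 (20 neuropeptide genes) and 0.05 (22 NF-kappaB pathway genes) for every list that is not a marker list. These include 27 immediate early genes (−0.10), 24 delayed effector genes (−0.10), 48 potassium channel genes (−0.05), 23 dopamine and striatal cAMP signalling genes (−0.06), 40 synaptic vesicle genes (−0.07) and 22 GABA genes (−0.08). Among the marker lists, the hippocampal excitatory (−0.22), neocortical (−0.39) and thalamic (−0.38) medians were the most negative. Other marker lists had negative medians too, such as the oligodendrocyte list (−0.13). After context the hippocampal excitatory, neocortical and thalamic medians were 0.45, −0.06 and −0.14. The summed hippocampal markers reached 996 CPM in striatum Veh-CFC replicate 3, and 973 and 979 CPM in striatum HDACi-CFC replicates 2 and 4. The part of these libraries in the medians after conditioning was not tested. Medium spiny neuron markers had a median of −0.08, and 0 of 20 were called.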

How the data were processed

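RNA of hippocampus and striatum was sequenced in 32 libraries, 4 in each of 8 groups. Gene counts were used as the authors deposited them, as whole reads per Ensembl gene and not normalized. Per the submitters' processing notes bcl2fastq 2.20.0, STAR 2.6 and DESeq2 were used with build mm10. How reads were counted per gene, and on which strand, is not given in the sources used here. Of 54146 gene identifiers, 54079 matched GENCODE M21, which gave symbols and positions. Libraries held 26026024 to 36670767 counts.

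All 32 libraries were fitted together with 8 group means in edgeR 4.0.16 (R 4.3.3; limma 3.58.1), with TMM scaling, filterByExpr (19198 genes kept), the quasi-likelihood F test and Benjamini-Hochberg adjustment over all genes tested at 0.05. The contrasts were the drug effect in each region, their difference after each behaviour, the difference between behaviours, and hippocampus over striatum in vehicle context mice. Each SE was derived from the log2 value and the F statistic of its test, and the 95% intervals were built from that SE with the t distribution. Both are therefore approximate. CPM is the count scaled to a library total of 1000000. Tables were joined with Python 3.11.15 and pandas 2.3.3, and the test was checked on simulated counts.

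Genes were named by rule: up to 12 in each direction called in both fits with a mean of at least 1 log2 CPM, up to 8 changed oppositely in both regions, up to 2 of each list, and 12 chosen genes (Hdac1, Hdac2, Hdac3, Ttr, Ptgs2, Homer1, Bdnf, Nr4a1, Egr1, Npas4, Arc and Fos). The members and lists were chosen with earlier results of these data known; other genes were named after their values were seen. Replicates are separate mice within a group. Libraries of 1 group differed by more than counting noise (chi-square per degree of freedom 5.58 to 63.6). Alternatives were DESeq2 1.42.0 (size factors and Wald test), library size alone, no filter, only the conditioned libraries, replicate blocks, a batch term, replicate subsets, each conditioned library left out, sets of libraries left out, and GC and length offsets.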

Additional observations from a re-analysis of the deposited data

Results flagged for a closer look

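The drug effect differed between hippocampus and striatum after conditioning in 51 genes by the interaction test of edgeR. The log2 values of the positive genes called in both fits were Tnfaip3 (1.17), Ahr (1.17), Ccnj (1.12), Hyls1 (0.965), Mylip (0.913), Gcfc2 (0.855), Jph1 (0.705), Cblb (0.693), Rnf19a (0.676), Fastkd3 (0.585), Rfxap (0.49) and Tor1b (0.417), and of the negative ones Zc3h12c (−1.22), Glce (−0.791), Zswim5 (−0.752), Lin54 (−0.734), Acat2 (−0.673) and Sertad2 (−0.625). Those called with all libraries only were, on the positive side, Scube3 (2.82), Ttc26 (0.842), Slc25a30 (0.781), Ccnjl (0.66), Gdpgp1 (0.635), Fkbpl (0.611), Nsmce3 (0.578), Fam222b (0.537), Zfp821 (0.509), Knop1 (0.493), Tmem38b (0.457), Susd6 (0.436), Slc39a14 (0.403), Cyth3 (0.401) and Mlxip (0.398). On the negative side they were Eomes (−5.33), Gm49706 (−1.53), Fancb (−1.02), Zfp959 (−1.0), Ccnyl1 (−0.991), Tbc1d30 (−0.906), Pdp1 (−0.854), Zfp59 (−0.844), Ric8b (−0.813), Chmp1b (−0.747), Fam227a (−0.737), Nit2 (−0.719), Akap5 (−0.702), Rnf103 (−0.65), Cwc22 (−0.61), Mcm7 (−0.569), Csrnp3 (−0.559) and Specc1l (−0.281).

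A single library stood far from the other 3 of its group in 15 of 252 groups of 4 examined (5.95%), and chance alone gives about 1 in 20. Striatum Veh-CFC replicate 3 stood apart in 4 genes, with 17.4 CPM of Bdnf (others 0.21 to 0.656), 12.3 CPM of Ptgs2 (2.2 to 2.85), 27.4 CPM of Scube3 (41.8 to 44.6) and 13.5 CPM of Ttc26 (9.48 to 10.0). This library held 996 CPM of hippocampal excitatory neuron markers, and the part of that in these values was not tested. Striatum HDACi-CFC replicate 2 had 5.32 CPM of Eomes (others 0.0701 to 0.545). Striatum Veh-CFC replicate 1 had 36.5 CPM of Acat2 (33.2 to 33.3) and 39.7 CPM of Chmp1b (29.6 to 30.9), replicate 2 had 36.3 CPM of Tor1b (40.4 to 40.9) and replicate 4 had 8.43 CPM of Mylip (11.2 to 11.6). Striatum HDACi-CFC replicate 1 had 22.6 CPM of Rnf19a (25.6 to 25.8) and replicate 3 had 2.55 CPM of Gm49706 (1.69 to 1.75). In hippocampus HDACi-CFC, replicate 1 had 23.2 CPM of Acat2 (21.2 to 21.6) and 9.50 CPM of Slc25a30 (12.1 to 12.3), replicate 2 had 80.6 CPM of Rnf19a (82.1 to 82.4) and replicate 3 had 107 CPM of Akap5 (93.4 to 95.6).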

How the results depend on the processing

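The count of 51 region differences after conditioning became 153 with DESeq2's Wald test, 6 with only the 16 conditioned libraries, 113 with a term setting replicates 1 and 2 against 3 and 4 as batches, 0 with only replicates 1 and 2 or only replicates 3 and 4 (edgeR, fewer libraries), 20 without hippocampus HDACi-CFC replicates 2 and 4, 80 (28 positive, 52 negative) without striatum Veh-CFC replicate 3 and HDACi-CFC replicate 2, and 29 without these 4. It ranged from 32 to 108 when 1 library was left out. Offsets for GC content and transcript length, chosen after seeing the data, gave 175 (115 positive, 60 negative). It was 55 with DESeq2's size factors, 59 with library size alone and 34 without the filter. All 51 kept their sign in every alternative run, including replicates 1 and 2 alone and 3 and 4 alone. The genes were chosen in libraries that these runs share, so a kept sign is no independent support. The call itself was kept by 20 of the 51 and 15 of the 18 in each fit without 1 library. With only the conditioned libraries 6 of the 51 and 5 of the 18 kept it, and with replicates 1 and 2 or 3 and 4 alone 0 of either. Without the 4 libraries named above 14 of the 18 kept it, with Fastkd3, Rnf19a, Tor1b and Hyls1 lost. Without striatum HDACi-CFC replicate 4 as well, Mylip was also lost and 13 of the 18 kept it. Without the filter 15 of the 18 kept it, with Fastkd3, Lin54 and Rfxap lost.

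The 119 region differences after context became 199 with the Wald test, 73 without the filter, 200 with the batch term, 0 and 4 with replicates 1 and 2 or 3 and 4 alone, 191 without the striatum pair, 184 without that pair, hippocampus HDACi-CFC replicates 2 and 4 and striatum HDACi-CFC replicate 4, and 272 with the GC and length offsets; over all fits that left out libraries of conditioned mice, 1 or several, it ranged from 90 to 191, and was 96 without hippocampus HDACi-CFC replicate 4. The hippocampal drug effect, 4006 genes, became 1822 and 1880 with replicates 1 and 2 or 3 and 4 alone, 2416 without hippocampus HDACi-CFC replicates 2 and 4 and 2657 without the 4 libraries (2416 to 4261 over all such fits), and the striatal 4938 became 2738 and 2952 with replicates 1 and 2 or 3 and 4 alone. Where the alternative did not change the number of libraries or genes, the cause was not tested.

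The replicate number as a block within region gave 130 calls after conditioning (all 51 among them) and 197 after context. Taking the same treatment and number in both regions as 1 mouse gave 187 and 312, and kept 49 of the 51, without Cblb and Eomes. The block without hippocampus HDACi-CFC replicates 2 and 4, added after seeing the data, gave 36 and 187. Same-numbered libraries of the 2 regions deviated together with r over 0.1 in 15 of 16 pairs (lowest 0.0336), and 24 of 32 libraries correlated best with their own number, a hint from the data and not the design. Within a region 35 of 48 same-numbered pairs passed, so the numbers were not taken to pair the samples.

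Among single genes, 1522 values stayed on their side of the threshold, 491 lost and 3 gained a call over the alternatives, and none reversed. The median SE of a region difference was 0.213, and 0.141 for genes over 3 log2 CPM. What set this precision was not tested.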
